A study of Mus musculus with 18 samples.

Results

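The late step of a serum culture of astrocytes, from 72 h to 1 week without any added cytokine, was examined in 6 of the 18 RNA-sequencing libraries of the series, and in all genes of the count table. Neural stem cells came from the ventricular zone of wild type C57BL/6J mouse embryos at day 14, each culture from a single brain, and were kept as free-floating neurospheres (NSPs) before plating. For differentiation they were plated on poly-L-ornithine in DMEM with 10% fetal bovine serum and antibiotics. The 72 h group and the 1 week group, with 3 replicates each, shared this medium and differed in time in culture only, as far as the labels state. Libraries were chosen by the table's columns that the labels name untreated 72 h and untreated 1 week. Total RNA depleted of cytoplasmic and mitochondrial ribosomal RNA was sequenced, so the values describe bulk cultures, in which a smaller share of cells of a type and less RNA per cell cannot be told apart. The paper states in general, unless otherwise noted, that its data come from 3 or more independent biological experiments. The labels do not say whether replicates came from separate embryos. The p-values rest on the spread between replicates over all 18 libraries of the series, not these 6 alone, and that spread may be partly technical.

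Astrocytes are the glial cells that take up glutamate and potassium, buffer water through aquaporin channels, couple to one another through gap junctions and secrete proteins that act on synapses. When they respond to injury or to cytokines they are called reactive, and this state is known for more GFAP intermediate filament, complement proteins and acute phase proteins. Serum-grown astrocytes are a common model and are known to carry part of this reactive programme. Stem cells that leave the cell cycle can also raise genes that act as brakes on division, many of them targets of the tumour suppressor p53, which responds to stress and DNA damage.

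Of the 54838 genes in the table, 20067 passed the filter on low counts and were tested with edgeR's quasi-likelihood test. A gene is said to be called, to rise or to fall where its Benjamini-Hochberg adjusted p-value in that test was under 0.05. Fold changes are log2 differences, 1 week against 72 h, with their standard error (SE), and levels are in CPM, counts scaled to the normalised library size, which do not correct for gene length. At 1 week 537 genes were higher and 794 were lower than at 72 h, 1331 in all, which is 6.63% of the genes tested (2.68% higher and 3.96% lower). The median fold change was 0.98 among the genes that rose and -1.15 among those that fell, and 261 and 447 of them changed by at least 1 on the log2 scale. The libraries of the 2 groups did not overlap for all 537 higher genes and for 789 of the 794 lower ones, which a call nearly implies, and over all tested genes they did not overlap for 5403 (26.9%). Leaving out 1 library lowered the number of calls to 730, 793 and 744 without 1 week replicates 1, 2 and 3, and to 610 and 831 without 72 h replicates 2 and 3, while 1373 were called without 72 h replicate 1.

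**Figure D1:**
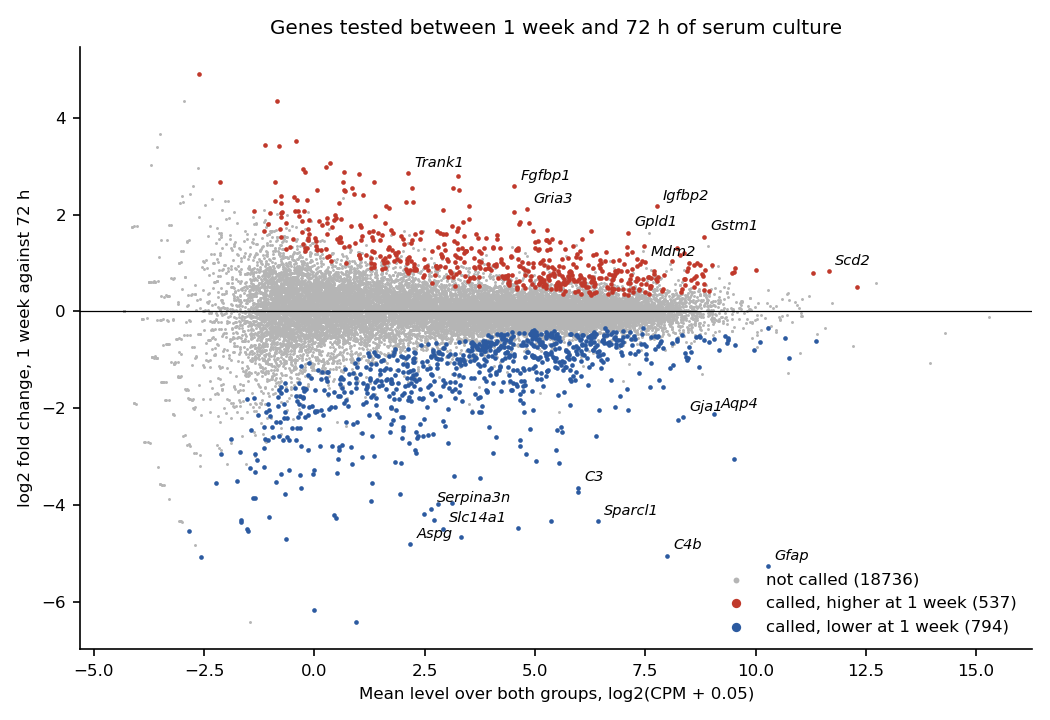
Each point is one of the 20067 tested genes, placed by its mean level over both groups (log2 of CPM + 0.05) and by its log2 fold change at 1 week against 72 h, with called genes in colour. The 794 genes that fell reach further from 0 than the 537 that rose, with *Gfap*, *C4b* and *Sparcl1* at the lower right and *Igfbp2*, *Gstm1* and *Scd2* among the abundant genes that rose.

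Total counts lay between 12598024 and 19106651 per library at 72 h and between 13878690 and 22549627 at 1 week. Over the 1000 most variable genes of the 6 libraries, the groups parted along the leading principal component (69.5% of the variance), from -28.3 to -20.3 at 72 h and from 23.6 to 26.8 at 1 week. On the next component (16.8%) 72 h replicate 1 (-19.2) and 1 week replicate 2 (-13.6) stood apart from the other libraries, which lay from 2.51 to 13.6. Genes of the mitochondrial genome took 3.19% to 3.45% of the counts at 72 h and 1.60% to 2.08% at 1 week. Most of that gap lay in *mt-Rnr2*, the large mitochondrial ribosomal RNA, with 21080, 20960.0 and 22690 CPM at 72 h and 10630, 11830 and 8409 CPM at 1 week (edgeR adjusted p = 0.121). *Lars2*, a mitochondrial leucyl-tRNA synthetase gene, fell by 3.05 (SE 0.58, edgeR adjusted p = 0.00284), from 1125, 511 and 2252 CPM to 158, 109 and 203 CPM. The unnamed gene *Gm15564* had the same order of libraries in both groups, with 70.0, 30.6 and 132.8 CPM at 72 h and 10.0, 5.81 and 16.3 CPM at 1 week. All 3 had lower group means at 1 week, but *mt-Rnr2* had the order of libraries of *Lars2* and *Gm15564* at 72 h only and the opposite order at 1 week, and the part of ribosomal RNA depletion in these 2 calls was not tested.

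The GFAP filament gene and several reactive genes were among the largest falls. *Gfap*, the intermediate filament protein of astrocytes (ENSMUSG00000020932, GRCm38 chromosome 11, 102887336 to 102900912, reverse strand), had 1855, 3172 and 2270.0 CPM at 72 h. At 1 week it had 55.9, 52.7 and 81.6 CPM. Every 1 week library lay far below every 72 h library, and the level fell by 5.26 (SE 0.65, edgeR adjusted p = 5.59e-05), a 38.4-fold lower value. *C4b*, a complement component of the classical pathway (ENSMUSG00000073418, chromosome 17, 34728380 to 34743882, reverse strand), had 452, 641 and 402 CPM at 72 h and 11.1, 13.4 and 20.99 CPM at 1 week. It fell by 5.05 (SE 0.47, edgeR adjusted p = 4.4e-06). *C3*, the central complement protein on which all activation routes converge, went from 103, 128 and 117 CPM to 6.71, 11.3 and 9.93 CPM, without overlap, a difference of -3.65 (SE 0.51, edgeR adjusted p = 0.000201).

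A list of genes known to mark reactive astrocytes had 24 members among the genes tested, of which 11 fell and 1 rose (50.0% called, against 6.63% of all tested genes), with a median fold change of -0.90 against -0.0003 over all genes tested. The fallers included the protease inhibitor *Serpina3n*, from 11.3, 13.3 and 10.2 CPM to 0.40, 0.38 and 1.41 CPM (-4.08, SE 0.61, edgeR adjusted p = 0.000426), and *Osmr*, the receptor for oncostatin M, from 43.7, 46.6 and 40.9 CPM to 5.39, 5.86 and 7.82 CPM (-2.79, SE 0.31, edgeR adjusted p = 2.05e-05). In both genes the groups did not overlap, and the 1 week libraries of *Serpina3n* rested on counts of 9, 7 and 20.0. *Aspg*, an asparaginase family gene, fell by 4.81 (SE 0.69, edgeR adjusted p = 0.000272) and the chemokine gene *Cxcl10* by 2.80 (SE 0.51, edgeR adjusted p = 0.00228), both from levels below 13 CPM. *Lcn2*, which encodes the iron-binding acute phase protein lipocalin 2, was near the detection limit throughout, with 1.97, 1.90 and 1.71 CPM at 72 h and counts of 1, 0 and 0 at 1 week. The member that rose was *Fbln5*, an elastic fibre protein, from a mean of 0.57 to 3.08 CPM (2.43). Of the 6 fits without 1 library, the call was lost in 5 for *S100a10*, in 4 for *Steap4* and in 3 each for *Sbno2* and *Cd44*. The count of fallers was 7 without 1 week replicate 1, without 1 week replicate 3 or without 72 h replicate 2. *Cd44*, a hyaluronan receptor, had 148, 167 and 149 CPM at 72 h and 53.5, 66.9 and 54.0 CPM at 1 week (-1.41, SE 0.35, edgeR adjusted p = 0.0191), with adjusted p-values of 0.0813, 0.0804 and 0.072 without those same 3 libraries. *Vim*, the other main filament gene of young astrocytes, was at 3120 CPM at 72 h and at 2252 CPM at 1 week on average and was not called.

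The promoters of several of these genes hold short motifs of factors known to drive the acute phase programme. The stretches that carry them are shown for genes that were called lower. The calls of *Steap4* and *Sbno2* were lost in 4 and 3 fits without 1 library, and *Lcn2* had counts of 1, 0 and 0 at 1 week. Sequences are from the RefSeq promoter table on GRCm38.p6, which covers 250 bases before and 50 after a start, and each stretch of 100 bases is written 5′ to 3′ along the gene's own strand. Capitals mark TTCNNNGAA, the motif of STAT factors that act downstream of the oncostatin M receptor and its relatives, in the first 3, and TTGCNNAA, a motif of C/EBP factors, in the last 2. The motif in *Gfap* begins 2 bases before the start and runs past it.
Gfap, chr11:102897194-102897293, reverse strand: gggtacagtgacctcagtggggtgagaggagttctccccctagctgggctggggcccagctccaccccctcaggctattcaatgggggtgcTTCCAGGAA
Steap4, chr5:7960311-7960410, forward strand: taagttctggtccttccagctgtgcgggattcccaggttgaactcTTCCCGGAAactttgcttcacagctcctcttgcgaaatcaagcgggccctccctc
Sbno2, chr10:80102703-80102802, reverse strand: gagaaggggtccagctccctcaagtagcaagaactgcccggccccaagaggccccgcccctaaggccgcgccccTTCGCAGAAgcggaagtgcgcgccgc
C3, chr17:57228137-57228236, reverse strand: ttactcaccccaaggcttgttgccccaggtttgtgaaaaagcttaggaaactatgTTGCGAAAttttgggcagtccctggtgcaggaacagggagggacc
Lcn2, chr2:32387890-32387989, reverse strand: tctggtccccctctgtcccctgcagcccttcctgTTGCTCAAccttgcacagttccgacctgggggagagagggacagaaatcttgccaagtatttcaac

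Of the 12 called members of the reactive list, 11 had a promoter in the table, and 3 of these held the STAT motif on either strand (*Gfap*, *Steap4* and *Sbno2*) and 3 the C/EBP motif (*Lcn2*, *Steap4* and *C3*). Among the members that were not called, 3 of 9 held each motif. Over all 27025 genes with a promoter there, 9.55% held TTCNNNGAA and 12.2% held TTGCNNAA. A motif found this way is a match of letters and not a measured binding site.

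Astrocyte function genes fell in part. A list of 29 tested genes of differentiated astrocytes had 12 members that fell and 2 that rose (48.3% called, against 6.63% of all tested genes), with a median fold change of -0.65, and 1 rose without 1 week replicates 1 or 3 or 72 h replicates 1 or 2. Among the fallers were the calcium-binding protein *S100b*, from 53.9, 90.1 and 84.0 CPM to 12.3, 12.2 and 17.6 CPM (-2.44, SE 0.20, edgeR adjusted p = 1.3e-06), and *Sparcl1*, a secreted protein that promotes excitatory synapses, from 109, 218 and 164 CPM to 6.93, 5.64 and 12.2 CPM (-4.33, SE 0.55, edgeR adjusted p = 8.7e-05). Both were well expressed at 72 h and their groups did not overlap. *Aqp4*, the water channel of astrocyte endfeet, had 665, 996 and 954 CPM at 72 h and 209, 184 and 210.0 CPM at 1 week (-2.12, SE 0.39, edgeR adjusted p = 0.00254). The angiotensinogen gene *Agt* fell by 3.13 and the urea transporter *Slc14a1* by 4.49, the last from 12.2, 16.8 and 13.8 CPM to 0.57, 0.33 and 1.06 CPM. *Gja1*, which encodes the gap junction protein connexin 43, had 445, 604 and 569 CPM at 72 h and 123, 115 and 119 CPM at 1 week (-2.18, SE 0.56, edgeR adjusted p = 0.0228). Its groups lay far apart, yet its call held without 72 h replicate 1 only, with adjusted p-values of 0.06 to 0.0872 when any other library was left out. *Ndrg2* and *Aldh1l1* fell with the same dependence, with adjusted p-values up to 0.135 and 0.123 when 1 library was left out.

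Other genes of the same list were not called or rose. Over its 29 tested members 24 had a negative and 5 a positive fold change. *Slc1a3*, the glutamate transporter GLAST, had 1861, 2287 and 2460.0 CPM at 72 h and 2137, 1800.0 and 2264 CPM at 1 week, with overlapping groups (-0.09, SE 0.17, edgeR adjusted p = 0.839). *Slc1a2*, the transporter GLT1, stood at 366, 366 and 270.0 CPM and then at 248, 298 and 262 CPM (-0.31, SE 0.22, edgeR adjusted p = 0.509). The potassium channel gene *Kcnj10*, which encodes Kir4.1, ranged from 287 to 507 CPM at 72 h and from 384 to 817 CPM at 1 week, the highest value in 1 week replicate 2, and was not called (edgeR adjusted p = 0.292). *Mlc1*, a membrane protein of astrocyte junctions, ranged from 1674 to 2503 CPM and from 1816 to 2290.0 CPM. Both groups thus held abundant transcripts of the 2 glutamate transporters, and so did NSPs. *Slc1a3* had 3381, 2791 and 2977 CPM in NSPs, and *Slc1a2* had 434.5, 422.2 and 421.9 CPM there. Levels of these transporters therefore did not set the cultures apart from NSPs. *Gpld1*, a phospholipase that releases anchored surface proteins (ENSMUSG00000021340, chromosome 13, 24943152 to 24992501, forward strand), rose by 1.63 (SE 0.18, edgeR adjusted p = 2.05e-05), from 58.4, 74.5 and 70.0 CPM to 225, 188 and 214 CPM. It shares exon bases with *Mrs2*, and the strand setting of the counting is not given in the sources used here. *Glul*, glutamine synthetase, rose by 0.60 (SE 0.14, edgeR adjusted p = 0.0118) from 272, 328 and 368 CPM to 514, 412 and 538 CPM, with calls lost without 1 week replicate 1 or 3 or 72 h replicate 1 or 2 (adjusted p from 0.0513 to 0.0697).

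**Figure D2:**
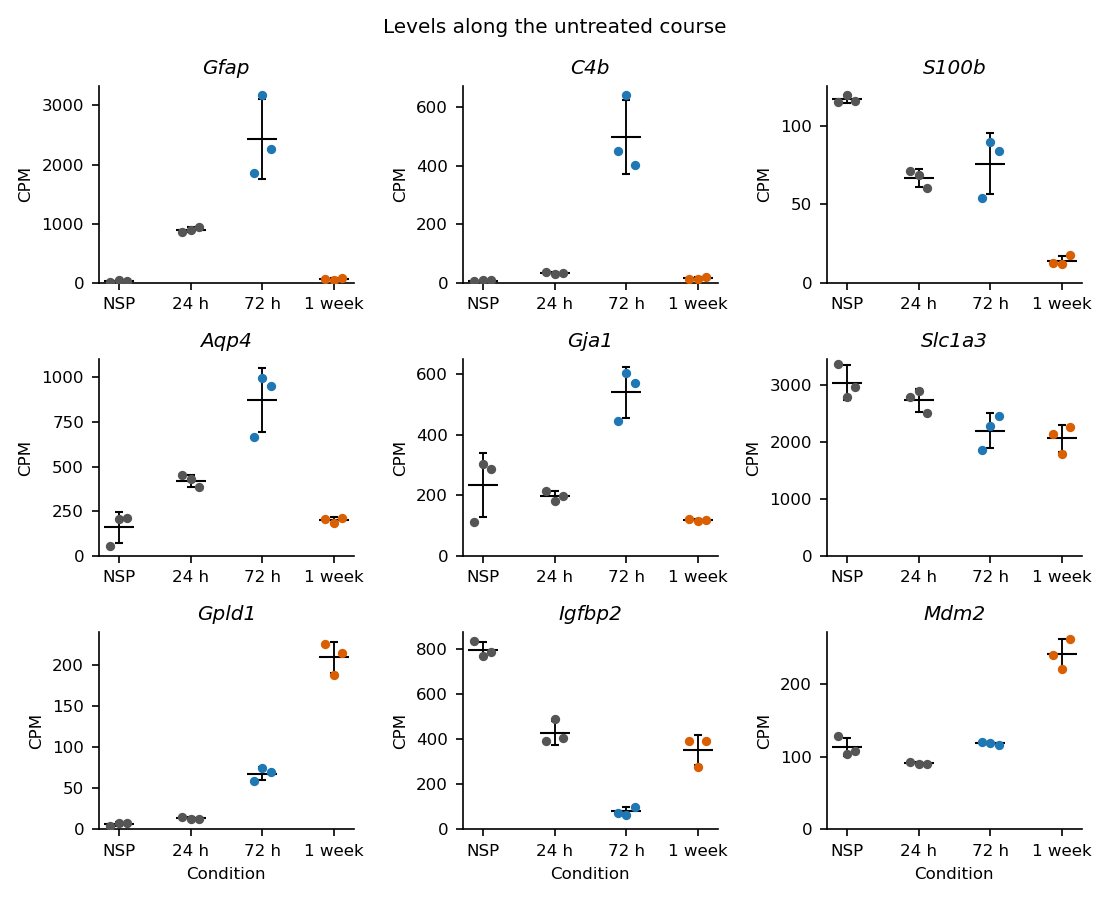
Each panel gives the level in CPM of 1 gene in the 12 untreated libraries, with points for the 3 replicates of a condition, a bar for the mean and whiskers for the SD. *Gfap* and *C4b* peak at 72 h and are low at 1 week, *Slc1a3* stays between 1800 and 2460 CPM from 72 h on, and *Gpld1* and *Mdm2* are highest at 1 week.

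The same genes in the younger cultures are given as levels alone, since a further comparison with 72 h would share its libraries. *Gfap* averaged 27.1 ± 13.7 CPM (SD, n = 3) in NSPs and 899 ± 44.6 CPM at 24 h, then 2432 ± 673 CPM and finally, in the oldest cultures, 63.4 ± 15.9 CPM. Its 1 week level was thus next to that of NSPs and below that of 24 h. *C4b* averaged 7.06 ± 2.5, 32.6 ± 2.22, 498 ± 126 and 15.1 ± 5.18 CPM in the same order, so that 1 week lay between NSPs and 24 h. *S100b*, by contrast, was lowest at 1 week, with 117 ± 2.58, 66.8 ± 5.64, 76.0 ± 19.4 and 14.1 ± 3.08 CPM, and 24 h and 72 h did not differ beyond their spread. *Gpld1* had its highest level at 1 week, after 6.19 ± 2.19, 13.3 ± 1.02 and 67.7 ± 8.36 CPM at the earlier conditions and 209 CPM (all 3 between 188 and 225). *Igfbp2*, which encodes a binding protein of insulin-like growth factors, was lowest at 72 h, with 800 ± 33.6, 428 ± 53.3, 78.3 ± 19.1 and 354 ± 66.4 CPM.

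Among called protein-coding genes with at least 5 CPM in the higher group and no overlap between the groups, the largest rises were those of *Trank1*, *Fstl4*, *Fgfbp1*, *Cdk6*, *Sec14l5*, *Adm*, *Cutal*, *Six4*, *Igfbp2*, *Osgin1*, *Gria3* and *Npr3*, from 2.85 down to 2.09, and all 12 calls held with each library left out. At 72 h each of them except *Igfbp2* was below 13 CPM. *Fgfbp1*, a secreted carrier that releases fibroblast growth factors from the matrix, went from 5.15, 5.09 and 9.41 CPM to 39.3, 30.0 and 49.0 CPM (2.58, SE 0.28, edgeR adjusted p = 3.05e-05). It had 0 CPM in NSPs on average. *Igfbp2* (ENSMUSG00000039323, chromosome 1, 72824503 to 72852474, forward strand) went from 73.6, 62.0 and 99.4 CPM to 391, 277 and 393 CPM (2.17, SE 0.39, edgeR adjusted p = 0.00201). The vasodilator peptide gene *Adm* rose by 2.50 and *Npr3*, the clearance receptor of natriuretic peptides, by 2.09. *Gria3*, an AMPA receptor subunit, had 12.7, 9.20 and 9.96 CPM at 72 h and 43.1, 53.2 and 40.9 CPM at 1 week (2.11, SE 0.19, edgeR adjusted p = 3e-06), and its groups were far apart. The largest falls by the same rule were those of *Gfap*, *C4b*, *Aspg*, *Glycam1*, *Slc14a1*, *Rnase1*, *Sparcl1*, *Elobl*, *Fam216b*, *Serpina3n*, *Lgi4* and *Cd36*, from -5.26 to -3.96, again with every call kept when a library was left out. Of 175 genes that the naming rule picks from all lists, 57 share exon bases with another annotated gene, and the counting strand that would divide their reads is not given in the sources used here. Among those described here are *Cdk6*, *Gria3*, *Npr3*, *Lgi4*, *Fam216b*, *Cdkn1a*, *Ccnd1*, *Glul*, *Cxcl10*, *Vcam1*, *Nlrc5*, *Scd2*, *Srebf1*, *Col5a1*, *Fbn1*, *Tgfb2*, *Bmp6*, *Wnt5a*, *Fgf2*, *Dusp1*, *Junb*, *Svop*, *Gabra4*, *Adora1*, *Slc1a2*, *Pdia4*, *Ndufs3*, *Dnah6*, *Dnah11*, *Cfap52*, *Cnp*, *Bcas1* and *Gas7*. *Rnase1*, a secreted ribonuclease, had 36.8, 63.9 and 40.1 CPM at 72 h and 1.59, 1.37 and 3.59 CPM at 1 week (-4.47, SE 0.74, edgeR adjusted p = 0.00103). *Cd36*, a fatty acid and lipoprotein receptor, had 11.7, 17.2 and 19.9 CPM and then 0.80, 0.77 and 1.69 CPM (-3.96, SE 0.38, edgeR adjusted p = 5.53e-06).

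**Figure D3:**
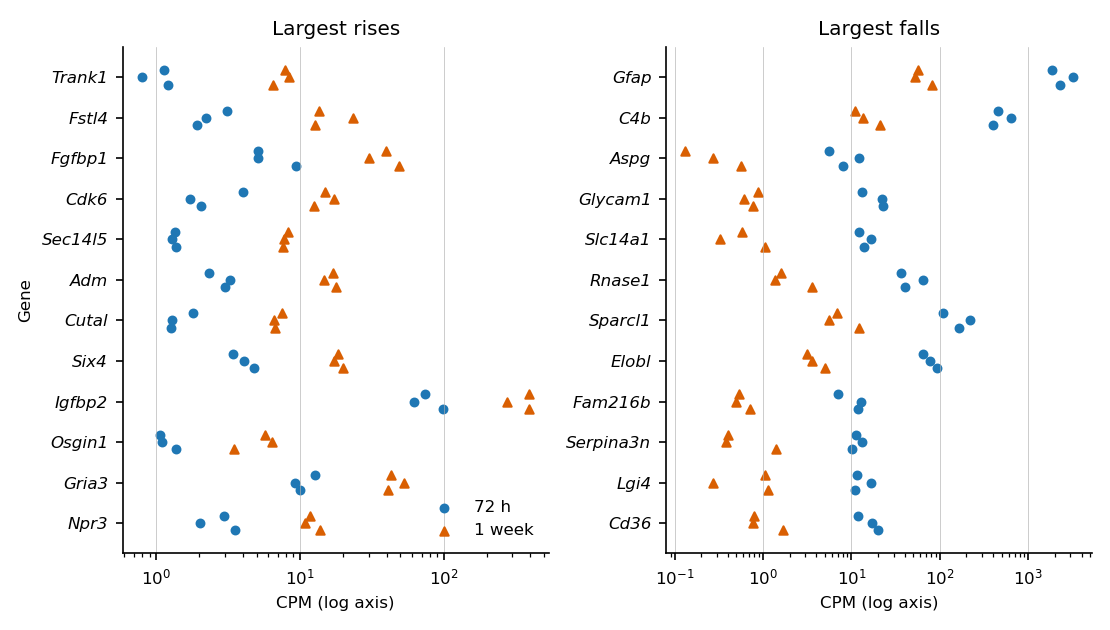
Points give the level in CPM (log axis) of each library for the 12 protein-coding genes with the largest rise and the 12 with the largest fall, with 72 h as circles and 1 week as triangles. Groups without overlap were a condition of the choice, and the plot shows how far apart they lie.

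Of the cell cycle genes, 3.12% of the mitotic list and 28.6% of the G1 list were called, against 6.63% of all tested genes. By edgeR 0 of 32 tested DNA replication genes were called (median -0.12), with 2 higher and 2 lower at an unadjusted p under 0.05 and 0 called by DESeq2, and of 32 mitotic genes only *Cdk1* was, which fell by 1.21 from 4.05 to 1.79 CPM and lost its call without any single library except 72 h replicate 1 (adjusted p up to 0.147). *Mki67*, the proliferation antigen, had 1.44, 1.35 and 1.38 CPM at 72 h and 2.61, 3.01 and 2.32 CPM at 1 week (edgeR adjusted p = 0.425), against a mean of 474 CPM in NSPs. *Ccnb1*, cyclin B1, was below 1.3 CPM in all 6 libraries (edgeR adjusted p = 0.976). Of 21 genes for G1 cyclins, their kinases and inhibitors, 6 rose and 0 fell by edgeR and by DESeq2, 4 were lower at an unadjusted p under 0.05, and the median was 0.04. Without 72 h replicate 1, 2 of them fell. *Cdkn1a*, the kinase inhibitor p21 (ENSMUSG00000023067, chromosome 17, 29090976 to 29100727, forward strand), went from 77.2, 88.1 and 81.5 CPM to 199, 201 and 162 CPM (1.19, SE 0.25, edgeR adjusted p = 0.00564). *Mdm2*, the ubiquitin ligase that restrains p53 (ENSMUSG00000020184, chromosome 10, 117688875 to 117710758, reverse strand), had 119, 119 and 117 CPM at 72 h and 239, 220 and 262 CPM at 1 week (1.02, SE 0.13, edgeR adjusted p = 0.000107). In both genes all 1 week libraries lay above all 72 h libraries. Of the other members of this list, *Cdk6*, a kinase of the G1 phase, rose from 4.01, 1.72 and 2.04 CPM to 15.02, 17.4 and 12.5 CPM (2.56, SE 0.44, edgeR adjusted p = 0.00127) and *Ccnd1*, its partner cyclin D1, from 10.3, 9.33 and 13.4 CPM to 40.5, 31.7 and 46.1 CPM (1.84, SE 0.41, edgeR adjusted p = 0.00896, and 0.0603 without 72 h replicate 2).

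Because *Mdm2*, *Cdkn1a* and *Ccng1* rose together, a list of known p53 target genes was written after these values were seen, so its count is a description and not independent evidence. Of its 30 tested members 16 rose (53.3%, against 2.68% of all tested genes) and 0 fell by edgeR and by DESeq2, 1 was lower at an unadjusted p under 0.05, and 26 had a positive fold change, with a median of 0.65. *Cdkn1a*, *Mdm2*, *Ccng1* and *Trp53inp1* stand on both this list and the G1 list. With 1 library left out 12 to 15 of them were called. *Gtse1*, a spindle-associated protein that is itself induced by p53 and dampens it, went from 8.48, 9.08 and 9.30 CPM to 37.2, 34.7 and 39.2 CPM (2.05, SE 0.18, edgeR adjusted p = 2.17e-06). *Psrc1* and *Ckap2*, other spindle genes on this list, rose by 1.30 and 1.44. Of the 32 mitotic genes 0 were called higher, which is near the 2.68% of all tested genes. Among them 17 had a positive and 15 a negative fold change, and 3 were higher and 2 lower at an unadjusted p under 0.05 by edgeR. The remaining risers ranged from 0.54 for *Bax*, a cell death effector, to 1.29 for the kinase gene *Plk2*. The call of *Bax* was lost without 1 week replicates 1 or 3 or 72 h replicates 1 or 2 (adjusted p from 0.0895 to 0.17). Members that were not called included *Bbc3*, *Pmaip1* and *Fas*, which act in cell death, at 0.37, -0.12 and 0.24.

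**Figure D4:**
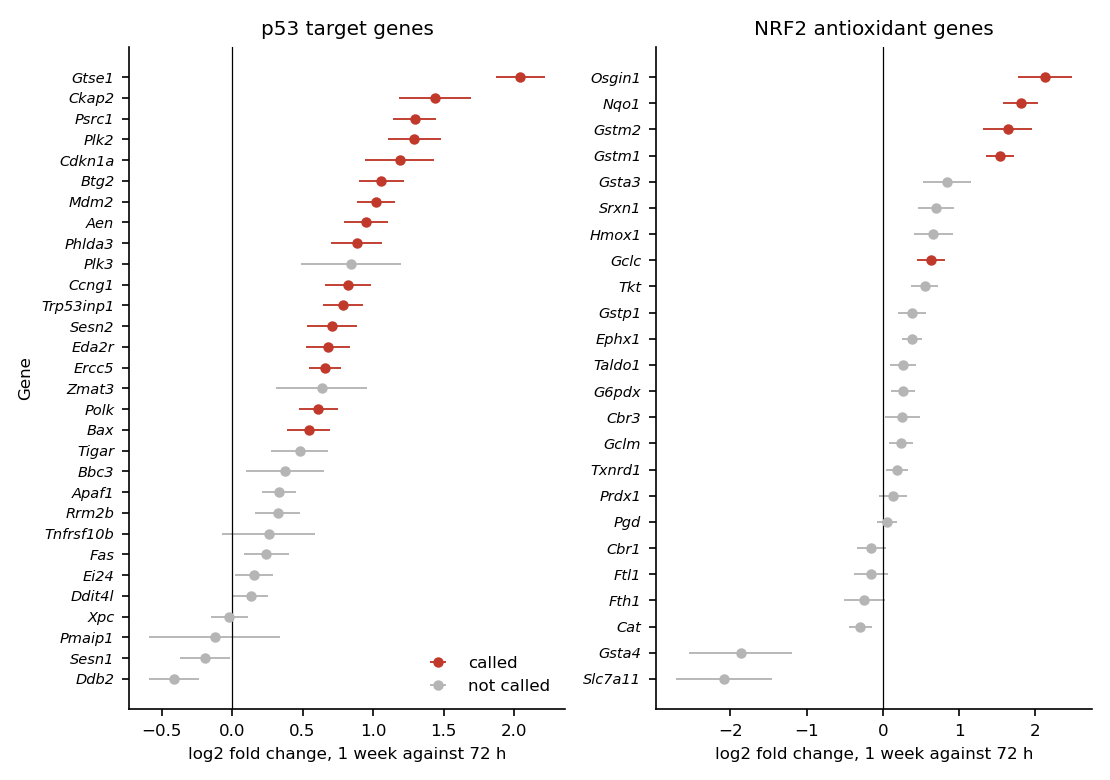
Log2 fold change at 1 week against 72 h, with SE as whiskers, for the 30 tested p53 target genes and the 24 tested NRF2 antioxidant genes, with called genes in red. In the left panel 16 genes are called and all lie above 0, from *Bax* to *Gtse1*, and in the right panel 5 are called.

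The p53 decamer, the unit from which p53 binding sites are built, was searched in the promoters of these genes and is marked in capitals in the stretches below, which are shown because the genes rose together. Each stretch is 100 bases on GRCm38.p6 from the same RefSeq table.
Mdm2, chr10:117710890-117710989, reverse strand: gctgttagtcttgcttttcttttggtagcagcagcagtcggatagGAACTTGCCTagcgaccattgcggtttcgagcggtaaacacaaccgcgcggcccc
Cdkn1a, chr17:29090861-29090960, forward strand: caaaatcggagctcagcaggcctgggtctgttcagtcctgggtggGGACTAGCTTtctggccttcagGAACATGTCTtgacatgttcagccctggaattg
Ccng1, chr11:40755417-40755516, reverse strand: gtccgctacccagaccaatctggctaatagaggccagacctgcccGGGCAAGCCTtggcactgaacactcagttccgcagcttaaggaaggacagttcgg
Bax, chr7:45467045-45467144, reverse strand: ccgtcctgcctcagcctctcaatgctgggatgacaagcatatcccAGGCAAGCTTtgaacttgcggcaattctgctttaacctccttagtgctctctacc
Aen, chr7:78895892-78895991, forward strand: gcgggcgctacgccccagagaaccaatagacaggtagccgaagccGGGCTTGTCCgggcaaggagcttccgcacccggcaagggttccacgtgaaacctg
Ckap2, chr8:22185968-22186067, reverse strand: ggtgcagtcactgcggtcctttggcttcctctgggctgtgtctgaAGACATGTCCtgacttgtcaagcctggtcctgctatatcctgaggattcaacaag

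The decamer reads the same class of letters on both strands. It was present in at least 1 promoter window of 8 of the 15 called members with a promoter in the table, in 3 of 8 members that were not called, and in 9.55% of all 27025 genes. *Cdkn1a* held 2 decamers, both in the stretch shown. The list was written from known p53 targets, so the share among its members is a description.

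Antioxidant genes rose in part. NRF2 is the factor that raises detoxifying and glutathione genes under oxidative stress, and 5 of 24 tested genes of its programme rose (20.8%, against 2.68% of all tested genes) and 0 fell by edgeR and by DESeq2, with 2 lower at an unadjusted p under 0.05, 1 faller without 1 week replicate 3 and a median of 0.27. *Gstm1*, a glutathione transferase (ENSMUSG00000058135, chromosome 3, 108012255 to 108017973, reverse strand), had 212, 192 and 294 CPM at 72 h and 788, 587 and 655 CPM at 1 week (1.54, SE 0.18, edgeR adjusted p = 3.73e-05). *Nqo1*, a quinone reductase, went from 8.25, 9.63 and 15.1 CPM to 42.0, 27.6 and 46.7 CPM (1.81, SE 0.23, edgeR adjusted p = 7.95e-05), and *Osgin1* from 1.06, 1.10 and 1.38 CPM to 5.70, 6.41 and 3.45 CPM (2.13, SE 0.36, edgeR adjusted p = 0.0011). *Gstm2*, a close paralog of *Gstm1* with which it may share reads, rose by 1.64. *Gclc*, of glutathione synthesis, rose by 0.63 (edgeR adjusted p = 0.045) and was not called without 1 week replicates 1 or 3 or 72 h replicates 1 or 2 (adjusted p from 0.126 to 0.204). Well known members such as *Hmox1*, *Txnrd1*, *Gclm* and *Srxn1* were not called. The core of the antioxidant response element, TGACNNNGC, was in the promoter of 0 of the 4 called members with one in the table, in 7 of 17 others and in 14.0% of all genes.

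**Figure D5:**
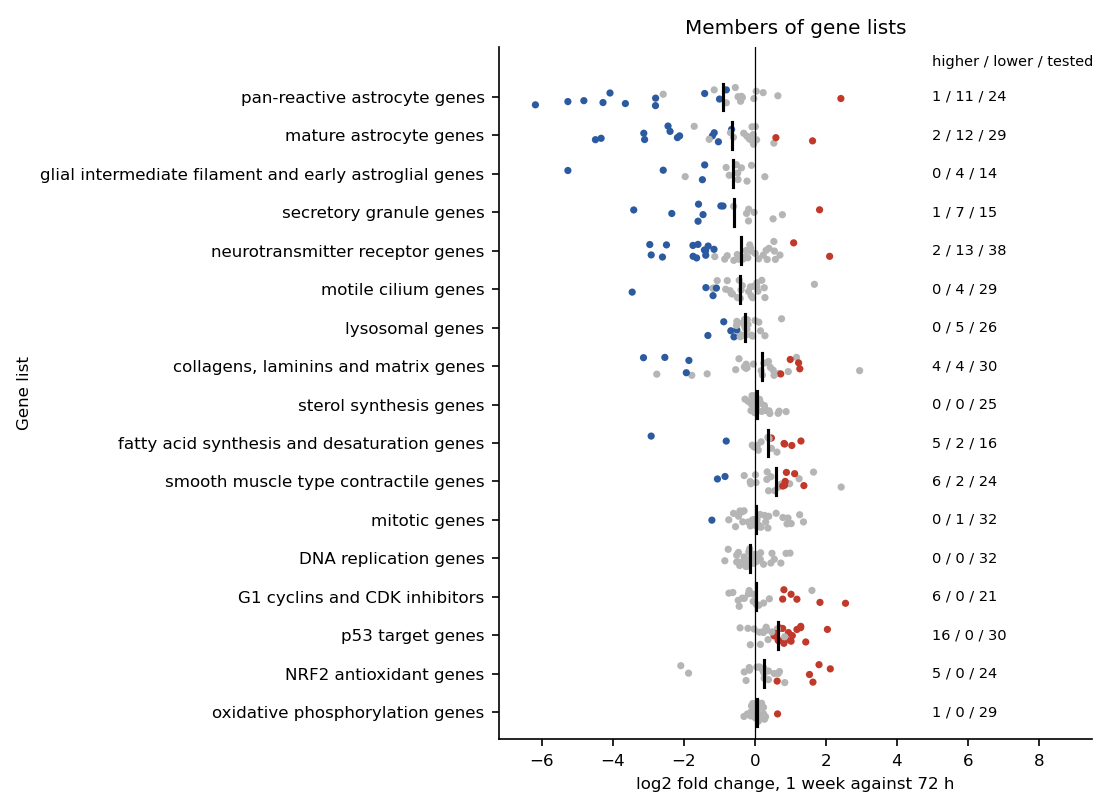
Each point is a tested member of a gene list, placed by its log2 fold change at 1 week against 72 h, red where it rose, blue where it fell and grey where it was not called, with a bar at the list's median and counts at the right. The called reactive and mature astrocyte genes are mostly blue, with 11 of 12 and 12 of 14 lower, the p53 targets hold 16 red points, and sterol synthesis, DNA replication and oxidative phosphorylation lie around 0.

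Lipid genes moved in both directions. Of 16 genes for fatty acid synthesis and desaturation 5 rose and 2 fell (43.8% called, against 6.63% of all tested genes), with a median of 0.39, while 0 of 25 sterol synthesis genes were called by edgeR or DESeq2 (1 at an unadjusted p under 0.05, median 0.06). The 5 became 3 without 1 week replicate 2 or 72 h replicate 3, and the 2 became 1 without 1 week replicates 1 or 2 or 72 h replicates 2 or 3. *Scd2*, the main stearoyl-CoA desaturase of the brain, was already abundant, with 2181, 2295 and 2550.0 CPM, and reached 4419, 4222 and 3812 CPM (0.83, SE 0.11, edgeR adjusted p = 0.000191). *Srebf1*, the factor that drives this pathway, went from 159, 191 and 164 CPM to 466, 398 and 402 CPM (1.30, SE 0.26, edgeR adjusted p = 0.00394), and *Scd1* rose by 1.04. Each of these 3 had groups without overlap. *Fasn*, fatty acid synthase, rose by 0.84 (edgeR adjusted p = 0.0135, but 0.0582 without 1 week replicate 2 and 0.0726 without 72 h replicate 3). *Thrsp*, a lipogenic regulator, went the other way, from 19.1, 36.9 and 30.8 CPM to 4.37, 3.73 and 3.31 CPM (-2.92, SE 0.31, edgeR adjusted p = 1.71e-05). Among 20 genes for lipid uptake, storage and efflux 4 fell (20.0%, against 3.96% of all tested genes) and 0 rose, *Cd36* the furthest, and 2 were called without 1 week replicate 1, without 1 week replicate 3 or without 72 h replicate 2. *Apoe*, the main lipid carrier of astrocytes, had 1814, 3010.0 and 2443 CPM at 72 h and 1163, 759 and 1064 CPM at 1 week, groups that did not overlap, and was not called.

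Matrix and contractile genes moved in both directions. Of 30 collagen, laminin and matrix genes 4 rose and 4 fell (26.7% called, against 6.63% of all tested genes). The basement membrane collagens *Col4a1* and *Col4a2*, which lie head to head and share exon bases, fell by 2.53 and 1.86, the first from 8.70, 13.9 and 10.1 CPM to 1.90, 2.03 and 1.69 CPM (edgeR adjusted p = 2.05e-05). The fall was largest for *Col6a1* (-3.13), and *Fbn1*, of elastic microfibrils, fell by 1.93. The fibrillar collagen *Col5a2* rose instead, from 232, 223 and 260 CPM to 490, 413 and 525 CPM (1.00, SE 0.19, edgeR adjusted p = 0.00297) and *Col5a1* rose by 1.24. *Col8a1* was not called without 72 h replicate 2 (adjusted p = 0.0695) nor *Col11a1* without any 1 library (adjusted p up to 0.161). Of 24 genes of the smooth muscle type contractile set 6 rose and 2 fell (33.3% called), with a median of 0.61. *Myh9*, the main non-muscle myosin heavy chain, went from 754, 768 and 686 CPM to 1314, 1365 and 1324 CPM (0.86, SE 0.18, edgeR adjusted p = 0.00587), and the actin-binding caldesmon gene *Cald1* from 153, 128 and 164 CPM to 262, 273 and 260 CPM (0.84, SE 0.16, edgeR adjusted p = 0.00264). *Lmod1*, an actin nucleator of smooth muscle, rose by 1.12. The calls of *Tpm1*, *Flna*, *Tagln2* and *Fhl2* were lost whichever library was left out, and that of *Tpm2* without any library except 1 week replicate 3 (adjusted p up to 0.187), so that 3 or 4 members rose and 0 fell in those fits.

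Signalling genes differed among themselves. *Id3*, an inhibitor of differentiation induced by BMP, had 109, 148 and 171 CPM at 72 h and 24.8, 20.6 and 26.3 CPM at 1 week (-2.58, SE 0.28, edgeR adjusted p = 2.05e-05). Of the 20 tested genes of the BMP and ID list, to which it belongs, 2 rose and 3 fell (over all tested genes 2.68% rose and 3.96% fell), 16 had a negative fold change, 10 were lower at an unadjusted p under 0.05, and the median was -0.51. The ligand genes *Bmp6* and *Bmp7* rose by 1.45 and 1.25, while *Smad9*, a transducer, fell by 0.97 and the receptor gene *Bmpr1b* by 0.88 (adjusted p between 0.0545 and 0.0867 without 1 week replicates 1 or 2 or 72 h replicates 2 or 3). *Bmp6* stood at 16.8, 20.2 and 17.3 CPM and then at 52.6, 48.0 and 47.5 CPM (edgeR adjusted p = 0.00368). Among growth factors *Pdgfb* rose by 1.47, from 22.2, 19.6 and 18.9 CPM to 54.0, 51.4 and 62.5 CPM (SE 0.31, edgeR adjusted p = 0.00644), and *Tgfb2* fell by 1.71, from 16.9, 23.6 and 16.9 CPM to 5.74, 6.47 and 5.28 CPM (SE 0.32, edgeR adjusted p = 0.00232). Of 26 Wnt pathway genes 4 fell and 2 rose (23.1% called, against 6.63% of all tested genes). *Wnt5b* fell by 0.99 (edgeR adjusted p = 0.00315) and the receptor gene *Fzd9* by 2.30 (edgeR adjusted p = 0.00158). *Wnt5a* rose by 0.57 but was not called without 1 week replicate 3 or 72 h replicate 3 (adjusted p = 0.0526 and 0.0512), and *Fzd7* by 0.58 but was not called without any 1 library (adjusted p up to 0.121). The Notch ligand gene *Jag1* was the 1 called gene of 18 in its list (5.56%, against 6.63% of all tested genes, and 2 without 72 h replicate 1), at 2.88, 3.31 and 3.80 CPM and then 6.05, 6.36 and 5.84 CPM (0.86). In the remaining growth factor lists 2 of 27 EGF and FGF genes rose and 1 fell (11.1% called), *Igfbp2* was the 1 called of 12 IGF genes (8.33%), 2 of 18 neurotrophic genes rose and 1 fell, and 2 of 19 TGF-beta and YAP responsive genes rose and 1 fell. The neurotrophic risers were 1 without 1 week replicates 1 or 3 or 72 h replicates 1 or 2, and the faller was lost without any 1 week replicate or 72 h replicate 3. The TGF-beta and YAP risers were 0 without 72 h replicate 2 and 1 without 1 week replicate 2 or 72 h replicate 3. *Fgf2*, *Fgf9* and *Etv5* were each lost without at least 4 of the 6 libraries in turn.

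Immune and early response genes were called in both directions. Against 6.63% of all tested genes, 17.4% of interferon response, 20.0% of immediate early, 30.8% of chemokine and cytokine and 6.25% of MHC class I genes were called, and 3 of 12 complement genes fell, in lists of few members. Of 23 interferon response genes 3 fell and 1 rose, and of 16 genes for MHC class I presentation 1 fell, the regulator gene *Nlrc5* (-1.44, SE 0.25, edgeR adjusted p = 0.00128). The interferon fallers were 0 without 1 week replicate 2 or 72 h replicate 2 and 1 without 1 week replicate 1, and the riser, *Ifit3*, lost its call whichever library was left out (adjusted p up to 0.164). Chemokine genes differed among themselves. *Cx3cl1*, a membrane-bound chemokine read by microglia, rose from 44.4, 50.1 and 52.5 CPM to 114, 108 and 109 CPM (1.17, SE 0.26, edgeR adjusted p = 0.00802), while *Cxcl10* fell by 2.80. The adhesion gene *Vcam1* fell from 33.6, 35.9 and 42.5 CPM to 14.3, 13.5 and 13.7 CPM (-1.43, SE 0.22, edgeR adjusted p = 0.00053). *Ccl2* had counts of 3, 1 and 3 at 1 week. Of 25 immediate early genes 2 rose and 3 fell, and the fallers were 0 without 72 h replicate 2 and 1 without 1 week replicates 1 or 2 or 72 h replicate 3. *Dusp1*, a phosphatase that shuts off MAP kinases, rose by 1.66 (SE 0.31, edgeR adjusted p = 0.00264), and *Junb* fell by 1.55 (edgeR adjusted p = 0.00914, and 0.075 without 72 h replicate 2). *Egr1*, an early response transcription factor, had 15.1, 11.5 and 8.03 CPM at 72 h and 6.01, 10.2 and 4.22 CPM at 1 week, which overlap (edgeR adjusted p = 0.546).

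Receptor and secretory genes were described with lists written after the data were seen, which support nothing by themselves. Of 38 tested neurotransmitter receptor genes 13 fell and 2 rose (39.5% called, against 6.63% of all tested genes), with a median of -0.39, and 8 fell without 1 week replicate 1. The count of risers was 1 without any 1 week replicate or without 72 h replicates 2 or 3. *Grm5*, the metabotropic glutamate receptor of young astrocytes (ENSMUSG00000049583, chromosome 7, 87584168 to 88134907, forward strand), had 46.3, 53.9 and 47.5 CPM at 72 h and 5.96, 6.08 and 7.04 CPM at 1 week (-2.96, SE 0.25, edgeR adjusted p = 1.64e-06). It averaged 434 ± 16.3 CPM (SD, n = 3) in NSPs and 245 ± 14.5 CPM at 24 h, so that each later condition was lower than the one before. *Adora1*, the inhibitory adenosine receptor, fell from 74.2, 99.0 and 89.1 CPM to 33.7, 33.4 and 31.1 CPM (-1.42, SE 0.19, edgeR adjusted p = 0.000117) and the GABA receptor subunit *Gabra4* by 1.64 (SE 0.20, edgeR adjusted p = 5.21e-05). Of 15 secretory granule genes 7 fell and 1 rose (53.3% called), with 5 to 7 fallers when a library was left out. *Scg3*, a granule sorting protein, went from 175, 223 and 212 CPM to 68.2, 64.7 and 69.0 CPM (-1.60, SE 0.13, edgeR adjusted p = 1.76e-06), and chromogranin B, encoded by *Chgb*, fell by 3.41 (SE 0.32, edgeR adjusted p = 4.4e-06). *Svop*, a synaptic vesicle protein, went the other way, from 12.4, 13.6 and 12.7 CPM to 48.5, 41.0 and 47.5 CPM (1.83).

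Motile cilium genes held 4 fallers of 29 tested (13.8%, against 3.96% of all tested genes). *Dnah6*, a heavy chain of ciliary dynein, had 23.8, 31.8 and 18.8 CPM at 72 h and 2.08, 2.14 and 2.61 CPM at 1 week (-3.45, SE 0.48, edgeR adjusted p = 0.000231). The other 3 calls, of *Cfap52*, *Dnah11* and *Drc1*, were each lost without at least 4 of the 6 libraries in turn (adjusted p up to 0.14), and 1 or 2 members were called in those fits. *Foxj1*, the regulator of motile cilia, had 214, 303 and 296 CPM at 72 h and 238, 186 and 212 CPM at 1 week and was not called (edgeR adjusted p = 0.367).

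Among metabolic and stress lists, 3.45% of oxidative phosphorylation, 3.85% of ribosome biogenesis, 13.3% of glycolysis and hypoxia and 19.2% of lysosomal genes were called, against 6.63% of all tested genes, and differences between lists were not tested. Of 29 oxidative phosphorylation genes 1 rose (*Ndufs3*, 0.64), of 26 ribosome biogenesis genes 1 rose (*Utp20*, 0.67, lost without each single library with adjusted p from 0.0514 to 0.135), and of 30 genes for glycolysis and the hypoxia response 3 rose and 1 fell. *P4ha1*, a collagen prolyl hydroxylase, went from 168, 176 and 234 CPM to 449, 373 and 479 CPM (1.17, SE 0.15, edgeR adjusted p = 0.000101), whereas the aldolase of astrocytes, *Aldoc*, went from 444, 621 and 679 CPM to 284, 218 and 289 CPM (-1.14, SE 0.17, edgeR adjusted p = 0.000485). In the unfolded protein response list of 30, 1 rose and 2 fell. The disulfide isomerase *Pdia4* fell by 1.00 (SE 0.19, edgeR adjusted p = 0.00249). The call of *Sesn2* (0.71) was lost without any library except 1 week replicate 3 (adjusted p up to 0.0694). That of *Aldh1l2* (-0.82) was lost without any library except 72 h replicate 1 (adjusted p up to 0.127). The 5 fallers among 26 lysosomal genes were called in none of the fits without 1 library, except for 9 fallers without 72 h replicate 1. Of 20 genes of the glutamate and GABA recycling list 2 rose (*Slc1a4* and *Glul*) and 2 fell (*Grm3* by 1.38, and *Grm5*). Both fallers are metabotropic receptor genes and not transporters or recycling enzymes, and *Grm5* is the receptor gene already described above. The risers were 0 without 1 week replicates 1 or 3 or 72 h replicates 1 or 2 and 1 without 72 h replicate 3. Of 22 synapse-forming genes 2 rose and 2 fell, with 1 riser without 1 week replicate 2 or 72 h replicates 2 or 3. Of 16 metal handling genes 3 fell, and of 18 protease genes 3 fell, the latter 1 without 1 week replicate 2 or 72 h replicates 2 or 3. Of 18 glycogen genes 1 rose and 1 fell, and both calls were lost without any 1 week replicate or without 72 h replicate 2. Without 72 h replicate 1 the riser was lost as well and 2 fell.

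The long noncoding genes named here reached 20 CPM in the higher group. The genes *9230114K14Rik* and *C130083M11Rik*, which overlap on opposite strands of chromosome 5 (52190672 to 52279034 and 52199984 to 52216434) without shared exon bases, rose by 1.31 and 1.32, from 11.3, 10.6 and 9.85 CPM to 26.1, 24.8 and 27.7 CPM and from 8.78, 8.84 and 10.4 CPM to 24.2, 20.6 and 25.5 CPM (edgeR adjusted p = 4.4e-06 and 1.59e-05). *Gm37795*, an unnamed gene on chromosome 4 (150068539 to 150070997, forward strand) whose exon overlaps the end of the *Mir34a* hairpin, rose by 1.00, from 23.5, 22.6 and 16.3 CPM to 38.9, 39.9 and 46.1 CPM (SE 0.15, edgeR adjusted p = 0.000449). *Mir22hg*, the host gene of *Mir22* on chromosome 11, rose by 0.75, from 20.2, 19.7 and 21.02 CPM to 36.6, 29.2 and 36.8 CPM (SE 0.14, edgeR adjusted p = 0.00217). The mature microRNAs of these 2 loci are shown with the seed (bases 2 to 8) in capitals, from the RefSeq table on GRCm38.p6, and were not themselves measured here.
mmu-miR-34a-5p, chr4:150068473-150068494: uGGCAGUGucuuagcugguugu
mmu-miR-22-3p, chr11:75463772-75463793: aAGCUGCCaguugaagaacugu

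Markers of other cell types were checked beside these results. Of 22 microglia and macrophage markers 9 had no read in any of the 6 libraries, including *C1qa*, *C1qb*, *C1qc*, *Trem2* and *Itgam*, and edgeR called 0 of 5 tested (2 lower at an unadjusted p under 0.05 and 1 by DESeq2). Oligodendrocyte markers summed to 472 to 626 CPM at 72 h and 358 to 436 CPM at 1 week, most of it *Cnp*, with *Mag* and *Opalin* at 0, and *Cnp* fell by 0.93 while *Bcas1* rose by 0.53 and lost its call whichever library was left out (adjusted p up to 0.14). The neuronal sum, 1697 to 1720 CPM and 1943 to 1979 CPM, was almost all *Map2*, while *Stmn2* and *Snap25* stayed below 0.6 CPM and *Gap43* was the 1 of 17 that edgeR called (2 fell without 1 week replicate 2). Of those 17 genes 13 had a negative fold change (median -0.50), 8 were lower at an unadjusted p under 0.05 and 4 were lower by DESeq2, and *Dcx* had counts of 5, 13 and 13 at 72 h and 0 in each 1 week library (edgeR adjusted p = 0.057). Endothelial markers summed to 265 to 313 CPM and then to 639 to 742 CPM, nearly all of it the transporter *Slco1a4* (edgeR adjusted p = 0.0591), with *Cdh5* and *Cldn5* near 0 and 0 of 8 called by edgeR or DESeq2 (1 higher and 1 lower at an unadjusted p under 0.05). Fibroblast and meningeal markers summed to 84.6 to 93.6 CPM at 72 h and 49.5 to 54.3 CPM at 1 week, with *Prrx1* and *Foxc2* the 2 of 7 that fell and *Foxc2* lost without any library except 72 h replicate 1. Neural crest and Schwann markers summed to 116 to 158 CPM and then to 59.5 to 64.7 CPM, with falls of *S100b*, *Gas7* and *Cdh19*, the last lost whichever library was left out. Choroid plexus markers held 4 fallers of 6 tested (against 3.96% of all tested genes) at sums of 41.3 to 59.5 CPM and 42.3 to 44.2 CPM, while *Ttr* stayed below 0.4 CPM, and 1 to 4 fell when a library was left out (1 without 72 h replicate 3 and 2 without 72 h replicate 2 or any 1 week replicate). Pericyte and mural markers summed to 256 to 332 CPM and 422 to 486 CPM with 1 of 7 called, *Rgs5*, which fell, and ependymal markers to 392.2 to 527 CPM and 361 to 427 CPM with 0 of 10 called by edgeR or DESeq2 (3 lower at an unadjusted p under 0.05). The part of cell types other than astrocytes in the results above was not tested.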

How the data were processed

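Ribosomal RNA-depleted, stranded total RNA libraries of 18 samples in 6 conditions were sequenced, and the 3 untreated libraries at 1 week were compared with the 3 at 72 h. The deposited table holds whole-number read counts per Ensembl gene that the authors made, per the labels and submitters' processing notes, with FastQC, Trim Galore, STAR, SAMtools and featureCounts on mm10. Versions, strand and multimapping settings are not given in the sources used here. RNA quality was stated only as a range over the samples, which was wide, so the quality of each library is not known. The column of the third 72 h library carries the number 4 where its label has replicate 3. Of 54838 identifiers, 54809 were found in GENCODE M21.

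Counts were fitted in edgeR 4.0.16 (R 4.3.3) by quasi-likelihood, with 1 mean per condition over all 18 libraries, TMM normalization and filterByExpr, and p-values were adjusted by Benjamini and Hochberg. CPM used TMM library sizes. Counting error is small beside the spread between libraries for genes with many counts. It is not small for genes with few, such as *Aspg* (counts of 3, 5 and 8 at 1 week) and *Cxcl10* (5, 6 and 8). Named genes were the 12 called protein-coding genes with the largest rise and fall at 5 CPM or more without overlap, up to 6 called members per list by adjusted p (up to 2 abundant members where none was called), genes the study follows, and up to 6 long noncoding genes at 20 CPM or more; other genes named were chosen after their values were seen. A few genes are not reported here one by one but stay in the fit and the list counts. The comparison and its 44 gene lists were chosen with earlier results of these data known, and 3 lists (p53 targets, secretory granule and neurotransmitter receptor genes) were added after seeing the values. Alternatives were DESeq2 1.42.0, other normalizations, filters and sample sets, replicate blocks, a fold threshold and each library left out. Promoter and microRNA sequences came from RefSeq on GRCm38.p6.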

Additional observations from a re-analysis of the deposited data

How the results depend on the processing

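The 1331 calls (537 higher, 794 lower) became 1624 with DESeq2, 1320.0 with RLE and 1377 with upper quartile factors, 1243 with a minimum of 10 counts in total and 1889 with the 12 untreated libraries alone. Larger moves were 2032 calls without a filter (919 higher), 2001 in the 6 compared libraries alone (840.0 higher) and 708 with a log2 fold change of at least 1 (261 higher, 447 lower). Leaving out 1 library gave 610.0 to 1373 calls, 231 to 513 higher and 379 to 860.0 lower. With the labels' numbers as a replicate block there were 1239 calls, and with the third 72 h library unpaired 617 (231 higher, 386 lower). Deviations of same-numbered libraries correlated at -0.42, -0.17 and 0.30, and 1 of 6 libraries correlated best with its own number, so the numbers were not treated as pairing samples. Across the alternative fits, 45.4% to 98.9% of the calls were kept, and each called gene that was fitted kept its direction. Of 160 called named genes, 98 were called in every setting. Direction changed for 3 named genes that were not called. Mcm6 had 0.000297 and Ccnb1 0.86 with the unpaired block. With 1 library left out Pltp ranged from -0.18 to 0.0047 and Ccnb1 from -0.36 to 0.80. The causes were not tested. Genes at 3 counts or fewer in each 1 week library (Mmp14, Gdnf, Ccl2 and Lcn2) have no reliable fold change.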
